A study of Mus musculus with 2 samples.

Results

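The genes described here are 8 genes that mark Schwann cells, the glia of peripheral nerves, and sustentacular cells, the glia that wrap chromaffin cells in the adrenal medulla. They are S100b, Sox10, Mbp, Erbb3, Fabp7, Gfap, Cdh19 and Foxd3, chosen by gene symbol among 55536 annotated genes, and each symbol matched 1 gene. They were measured by total RNA sequencing in 2 adrenal gland libraries of male B6CASTF1/J mice, offspring of a cross between the C57BL/6J and CAST/EiJ inbred strains, at 14 days of age. The labels name no treatment and no altered gene. They call the libraries biological replicates 1 and 2 of 1 group and give 300 ng of starting RNA for each. Their wording places several males in a pool, and the pool number is the same for both libraries in one label field and differs in another, so whether the replicates hold separate animals is not settled. There is a single group, so no conditions were contrasted and nothing was tested. Differences between the replicates are given as the spread between these samples.

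Peripheral glia arise from the neural crest. Sox10 and Foxd3 are transcription factors of that lineage, and Sox10 stays on in Schwann, satellite and sustentacular cells. Neuregulin made by axons signals to Schwann cells through the receptor pair ERBB2 and ERBB3, and in part of these cells it leads to myelination, for which Mbp encodes a structural protein. In the adrenal medulla, nerve-associated Schwann cell precursors are a source of chromaffin cells during development. A bulk library holds every cell of the tissue, so fewer glial cells and less RNA per glial cell cannot be told apart.

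Values are TPM, an abundance corrected for transcript length and library depth, which allows levels of different genes to be ordered. Replicates 1 and 2 held 32963248 and 36260745 expected counts. Markers of other cells set the libraries apart. The 10 lymphocyte genes summed to 100.9 TPM in replicate 1, against 14.2 TPM in replicate 2. The 6 hepatocyte genes summed to 236.4 TPM in replicate 1, against 4162 TPM in replicate 2. The 6 chromaffin cell genes were close, at 1310 and 1340 TPM in replicates 1 and 2.

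S100b was by far the most abundant of the 8 genes. Mbp ranked above 59.3% of nuclear protein-coding genes, and Erbb3, Fabp7 and Cdh19 above 45.7 to 48.7%. Together the 8 genes summed to 28.2 ± 5.29 TPM (SD, n = 2), and S100b made up 52.8% of the sum in replicate 1 and 69.8% in replicate 2. At least 1 TPM was reached in both libraries by 5 of the 8 genes, S100b, Mbp, Erbb3, Fabp7 and Cdh19. Among 22015 nuclear protein-coding genes the share was 54.2%, so the share of detected glial genes was near the background. Sox10, Foxd3 and Gfap were below 1 TPM in both libraries, although Sox10 in replicate 1 was at 1.04 TPM by posterior mean and 1.32 TPM by kallisto. In the order of mean levels, S100b was followed by Mbp, Erbb3, Fabp7, Cdh19, Sox10, Foxd3 and Gfap. Erbb3, Fabp7 and Cdh19 could not be separated, because their ranges over the 2 libraries overlapped. In replicate 1 Cdh19 stood above Erbb3, at 1.58 against 1.18 TPM. The other neighbours in this order had ranges that did not overlap, with only 2 values for each gene.

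**Figure D1:**
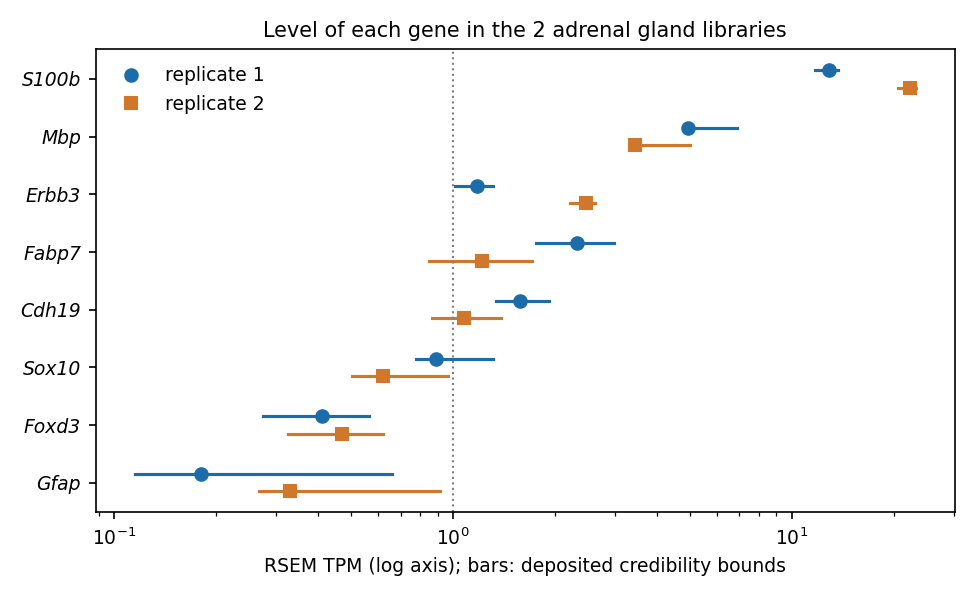
Level of each of the 8 genes in RSEM TPM on a log axis, with a circle for replicate 1 and a square for replicate 2. Bars are the credibility bounds deposited with each value, and the dotted line stands at 1 TPM. S100b lies far above the other genes, and Sox10, Foxd3 and Gfap lie below the line in both libraries.

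S100b encodes a small calcium-binding protein that is a standard marker of Schwann and sustentacular cells and is also made by adipocytes. It stood at 12.9 TPM in replicate 1, from 587 counts, and at 22.3 TPM in replicate 2, from 1099 counts. The mean was 17.6 ± 6.63 TPM (SD, n = 2), higher than 85.5% of nuclear protein-coding genes. Replicate 2 was the higher library by 1.73-fold, and the deposited credibility bounds, 11.7 to 13.7 TPM in replicate 1 and 20.6 to 23.2 TPM in replicate 2, were apart. The 8 adipocyte genes summed to 2950 TPM in replicate 1, against 3007 TPM in replicate 2, and their part in the S100b level was not tested. S100b overlaps Dip2a on the opposite strand, and Dip2a was at 8.29 TPM in replicate 1, against 8.53 TPM in replicate 2. Whether the counting used strand is not stated, so reads of this pair may not be told apart where they overlap. S100b lies on chromosome 10 of mm10 from 76253853 to 76261159 on the plus strand and has a single annotated transcript of 3 exons.

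Promoter windows from RefSeq (GRCm38.p6) were found for S100b, Fabp7, Gfap and Foxd3. Each runs from 250 bases before a start site to 50 bases after it. The Fabp7 and Gfap windows are set on the starts of Fabp7-202 and Gfap-202, which are minor forms here. The start of the main form Gfap-201, at base 102897131, lies outside the Gfap window. The S100b, Fabp7 and Gfap windows are shown to set the most abundant gene beside a lipid carrier and a filament gene. Fabp7 was higher in replicate 1, and S100b and Gfap in replicate 2, with overlapping credibility bounds for Gfap. A bearing of the promoter letters on these differences was not tested. Capitals mark SOX-type letters (the letters ACAAAG or ACAATG, and the same with a first T, which are TCAAAG or TCAATG) and the CCAAT box, on either strand (CCAAT reads ATTGG on the minus strand). No marked letters of one motif overlapped those of the other.
S100b, chr10:76253586-76253885, plus strand: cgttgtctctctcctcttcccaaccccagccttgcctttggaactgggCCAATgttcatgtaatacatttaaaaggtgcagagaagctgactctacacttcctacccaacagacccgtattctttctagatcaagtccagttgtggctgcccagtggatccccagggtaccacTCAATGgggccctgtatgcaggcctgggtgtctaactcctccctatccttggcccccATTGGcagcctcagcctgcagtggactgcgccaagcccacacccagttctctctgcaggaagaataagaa
Fabp7, chr10:57784673-57784972, plus strand: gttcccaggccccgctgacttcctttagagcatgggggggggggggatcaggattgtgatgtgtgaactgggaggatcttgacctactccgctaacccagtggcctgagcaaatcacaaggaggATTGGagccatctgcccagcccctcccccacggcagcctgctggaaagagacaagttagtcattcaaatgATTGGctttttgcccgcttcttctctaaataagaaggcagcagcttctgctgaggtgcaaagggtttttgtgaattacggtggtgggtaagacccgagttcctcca
Gfap, chr11:102897151-102897450, minus strand: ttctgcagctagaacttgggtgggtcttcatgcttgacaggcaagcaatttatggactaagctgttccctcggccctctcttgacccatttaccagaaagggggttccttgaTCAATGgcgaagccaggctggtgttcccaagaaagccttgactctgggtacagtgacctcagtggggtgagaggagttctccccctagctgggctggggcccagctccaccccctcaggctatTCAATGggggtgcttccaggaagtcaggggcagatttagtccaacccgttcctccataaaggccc

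The S100b window held 1 SOX-type match and 2 CCAAT matches, the Fabp7 window 2 CCAAT matches and no SOX-type letters, and the Gfap window 2 SOX-type matches and no CCAAT. The Foxd3 window held neither and was rich in G and C, at 65.7% against a median of 52.7% over 32851 promoters of the same length. SOX-type letters occurred in 44.0% and the CCAAT box in 37.4% of those promoters, so such matches are common.

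Sox10, the transcription factor that maintains peripheral glia, stood at 0.890 TPM in replicate 1, from 78 counts, and at 0.620 TPM in replicate 2, from 52 counts. Replicate 1 was the higher library, by 1.44-fold, and the credibility bounds overlapped, at 0.775 to 1.31 TPM in replicate 1 and 0.503 to 0.966 TPM in replicate 2. The mean of 0.755 ± 0.191 TPM (SD, n = 2) exceeded that of 40.9% of nuclear protein-coding genes. Sox10 was assigned to different transcripts in the libraries. In replicate 1 the RSEM values placed all of it on Sox10-203, and in replicate 2 they placed 83.9% on Sox10-201 and 1.61% on Sox10-203. Both transcripts carry the same coding length of 466 codons and differ in where they start, by 750 bases. By kallisto, Sox10-201 held 57.0% in replicate 1 and 91.2% in replicate 2, so at these counts the split between the starts is uncertain. Sox10-204, a retained intron form, held 14.5% in replicate 2 by RSEM and none in replicate 1. Sox10 lies on chromosome 15 from 79154908 to 79165240 on the minus strand.

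Foxd3, which specifies neural crest and restrains its differentiation, stood at 0.410 TPM in replicate 1, from 30 counts, and at 0.470 TPM in replicate 2, from 37 counts. Its mean of 0.440 ± 0.0424 TPM (SD, n = 2) had the smallest relative spread of the 8 genes. It is a gene of a single exon on chromosome 4, from 99656299 to 99658622. Its credibility bounds overlapped widely, at 0.275 to 0.564 TPM in replicate 1 and 0.325 to 0.620 TPM in replicate 2.

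Erbb3, the glial neuregulin receptor, which liver and other epithelia also express, stood at 1.18 TPM in replicate 1, from 230 counts, and at 2.46 TPM in replicate 2, from 518 counts. Replicate 2 was 2.08-fold higher by RSEM and 2.11-fold by kallisto, and the credibility bounds were apart, at 1.02 to 1.32 TPM in replicate 1 and 2.21 to 2.63 TPM in replicate 2. It was the single gene among the 5 members averaging 1 TPM or more that differed by over 2-fold, where 5.89% of 12535 nuclear protein-coding genes at that minimum did so. All 6 hepatocyte genes were over 2-fold higher in replicate 2, and their part in the Erbb3 difference was not tested. The mean level was 1.82 ± 0.905 TPM (SD, n = 2). Erbb3 has 1 annotated transcript of 28 exons and lies on chromosome 10 from 128567523 to 128589652 on the minus strand.

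Fabp7, a fatty acid binding protein of radial glia and Schwann cell precursors, stood at 2.32 TPM in replicate 1, from 54 counts, and at 1.22 TPM in replicate 2, from 31 counts. Replicate 1 was 1.90-fold higher, and the credibility bounds were just apart, at 1.76 to 2.98 TPM in replicate 1 and 0.851 to 1.71 TPM in replicate 2. The transcript of 4 exons and 132 codons, Fabp7-201, held 97.0% of its TPM in replicate 1 and 86.0% in replicate 2. The mean was 1.77 ± 0.778 TPM (SD, n = 2), and the gene lies on chromosome 10 from 57784881 to 57788450 on the plus strand. Fabp7-202, of 188 codons, took the rest, from 1.78 counts in replicate 1 and 4.76 counts in replicate 2.

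Cdh19, a type II cadherin of Schwann cell precursors, stood at 1.58 TPM in replicate 1, from 183 counts, and at 1.08 TPM in replicate 2, from 124 counts. Its ratio of 1.46-fold in favour of replicate 1 came with bounds that overlapped, at 1.34 to 1.91 TPM in replicate 1 and 0.864 to 1.39 TPM in replicate 2. The coding transcript Cdh19-201, of 12 exons and 770 codons, held 91.1% in replicate 1 and 81.5% in replicate 2. The noncoding Cdh19-202 held the remainder, and by kallisto 22.9% in both libraries. Its mean was 1.33 ± 0.354 TPM (SD, n = 2). Cdh19 lies on chromosome 1 from 110888326 to 110977584 on the minus strand.

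Gfap, the intermediate filament of astrocytes and of some non-myelinating Schwann and enteric glia, was the lowest of the 8 genes by TPM and by kallisto, at 0.180 TPM in replicate 1, against 0.330 TPM in replicate 2. These values rested on 13 and 30 counts in replicates 1 and 2, and the bounds overlapped, at 0.115 to 0.662 TPM and 0.268 to 0.913 TPM. The mean was 0.255 ± 0.106 TPM (SD, n = 2), and the gene lies on chromosome 11 from 102887336 to 102900912 on the minus strand. By posterior mean TPM it averaged 0.445 ± 0.134, the same as Foxd3, so its last place depends on the estimate. By kallisto the ratio was 2.07-fold in favour of replicate 2, against 1.83-fold by RSEM. The main coding transcript Gfap-201, of 430 codons, held 88.2% in replicate 1 and 84.8% in replicate 2. Gfap-202, of 428 codons, was assigned nothing in replicate 1 and 15.2% in replicate 2 by RSEM, and 12.9% and 13.4% by kallisto. The noncoding Gfap-203 took 11.8% in replicate 1, from 0.210 counts.

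Credibility bounds were apart for 4 of the 5 members averaging 1 TPM or more, namely S100b, Mbp, Erbb3 and Fabp7, where the share among nuclear protein-coding genes was 20.5%. The directions were mixed: 4 genes were higher in replicate 1 (Mbp, Fabp7, Cdh19 and Sox10) and 4 in replicate 2 (S100b, Erbb3, Gfap and Foxd3). Expressed as log2(TPM + 1) of replicate 1 less that of replicate 2, the median was 0.08 for all 8 genes. It was 0.31 for the 5 members averaging 1 TPM or more and 0.06 for the 12535 nuclear protein-coding genes above the same minimum.

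Mbp encodes myelin basic protein and has 2 kinds of start site. Transcripts from the upstream start, known as golli, are found in lymphocytes and neurons as well as in myelin-forming cells, whereas the downstream start gives the classic proteins of myelin. Mbp as a whole stood at 4.95 TPM in replicate 1, from 505 counts, and at 3.44 TPM in replicate 2, from 377 counts, a 1.44-fold ratio in favour of replicate 1 and a mean of 4.20 ± 1.07 TPM (SD, n = 2). The credibility bounds ran from 5.08 to 6.88 TPM in replicate 1 and from 3.57 to 5.0 TPM in replicate 2, so both point values lay just below their own lower bound. The gene spans chromosome 18 from 82475146 to 82585637 and has 16 annotated transcripts.

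The 4 transcripts that start within 1 kb of the upstream end held 60.9% ± 0.169 of Mbp TPM (SD, n = 2), and the 12 that start at least 79.3 kb farther in held the rest. The upstream group stood at 3.01 TPM in replicate 1, against 2.10 TPM in replicate 2, and the downstream group at 1.94 TPM in replicate 1, against 1.34 TPM in replicate 2. Both groups were thus higher in replicate 1, by 1.43-fold for the upstream and 1.45-fold for the downstream start. By kallisto the upstream share was 68.1% in replicate 1 and 67.8% in replicate 2. Each of the 10 lymphocyte genes was over 2-fold higher in replicate 1, from 5.31-fold for Ms4a1 to 10.4-fold for Cd3e, while the upstream Mbp share was 60.8% in replicate 1 and 61.0% in replicate 2. The part of lymphocytes in the upstream level was not tested.

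Among single Mbp transcripts, Mbp-205, an upstream form of 195 codons, held 43.6% in replicate 1 and 42.4% in replicate 2. The downstream Mbp-211, of 128 codons, held 22.8% in replicate 1 and 22.1% in replicate 2. Mbp-201, an upstream form of 250 codons, held 12.5% and 15.4% in replicates 1 and 2, and the downstream Mbp-216, of 184 codons, 12.5% and 10.8%. The downstream share was divided differently by kallisto and unevenly between the libraries. By kallisto Mbp-215 held 13.5% in replicate 1 and 0.273% in replicate 2, Mbp-211 held 9.59% and 14.5%, and Mbp-216 held 5.99% and 17.5%. RSEM assigned Mbp-215 nothing in either library.

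**Figure D2:**
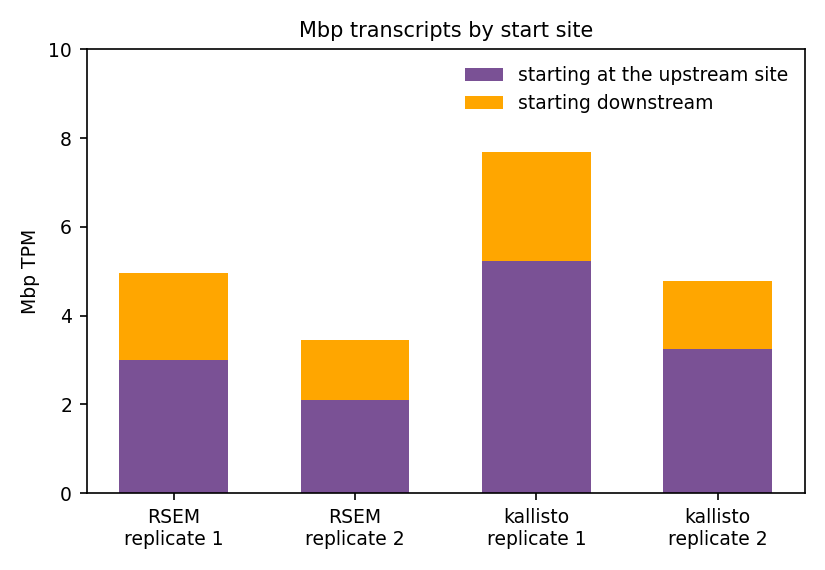
Mbp TPM in each library by each quantification, with the transcripts that start at the upstream site below and those that start downstream stacked above. The upstream part is the larger one in all 4 bars, at 60.8% and 61.0% of the RSEM value in replicates 1 and 2.

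Each gene was also set against Sox10 within its own library, as a ratio of TPM. Mbp was 5.56 times Sox10 in replicate 1 and 5.55 times in replicate 2, and Cdh19 was 1.78 times Sox10 in replicate 1 and 1.74 times in replicate 2. Fabp7 was 2.61 times Sox10 in replicate 1 and 1.97 times in replicate 2, from few counts. S100b was 14.5 times Sox10 in replicate 1 and 35.9 times in replicate 2. Erbb3 was 1.33 times Sox10 in replicate 1 and 3.97 times in replicate 2. Gfap was 0.202 times Sox10 in replicate 1 and 0.532 times in replicate 2, and Foxd3 0.461 and 0.758 times. The ratios of Mbp and Cdh19 were thus close in the libraries, and those of S100b and Erbb3 were far apart. All of these ratios share Sox10 as denominator, so they are not separate observations. Sox10 was itself 1.44-fold higher in replicate 1, from 78 and 52 counts in replicates 1 and 2, with overlapping bounds. A gene at equal TPM in both libraries would therefore stand higher against Sox10 in replicate 2.

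The counting error of these proportions was taken from the expected counts of each gene and Sox10, as the gene's share of the pair. S100b took 88.3% of the pair in replicate 1, with 95% exact binomial limits of 85.6 and 90.6%, against 95.5% in replicate 2 (94.1 to 96.6%). Erbb3 took 74.7% of its pair in replicate 1 (69.4 to 79.4%) and 90.9% in replicate 2 (88.2 to 93.1%). Gfap took 14.3% in replicate 1 (7.83 to 23.2%) and 36.6% in replicate 2 (26.2 to 48.0%). The intervals of these 3 pairs, of 7, did not overlap between the libraries. Of 14417 nuclear protein-coding genes with at least 10 counts in both libraries, 24% had intervals against Sox10 that were apart, and 22.6% had them apart with the higher share in replicate 2, as these 3 pairs did. For Mbp the share was 86.6% in replicate 1 (83.6 to 89.3%) and 87.9% in replicate 2 (84.4 to 90.8%). For Cdh19 it was 70.1% in replicate 1 (64.2 to 75.6%) and 70.5% in replicate 2 (63.1 to 77.1%). The shares of Fabp7, at 40.9% and 37.3%, and of Foxd3, at 27.8% and 41.6% in replicates 1 and 2, also had overlapping intervals. These intervals cover counting error only.

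**Figure D3:**
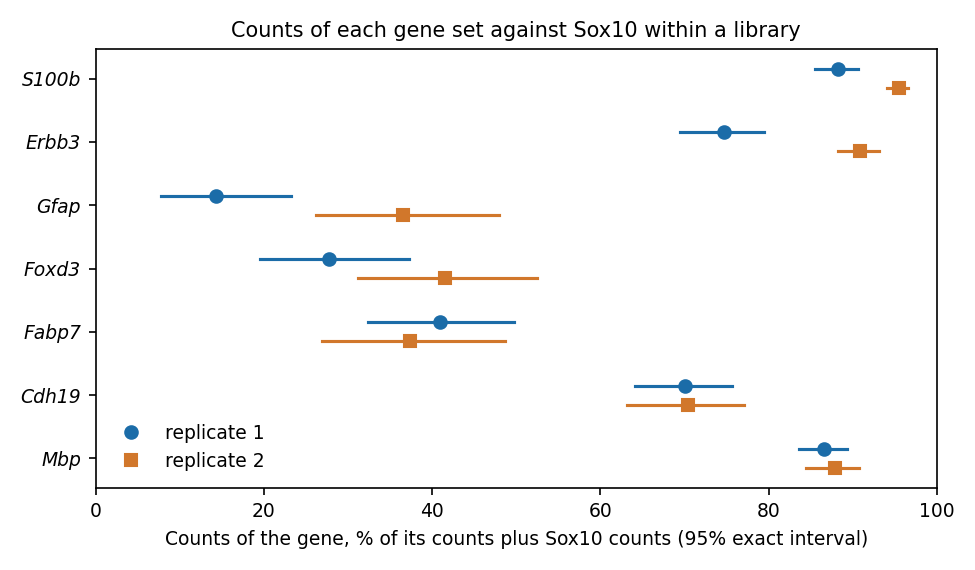
Counts of each gene as a percentage of its own plus the Sox10 counts, with 95% exact binomial intervals, for replicate 1 (circles) and replicate 2 (squares). The intervals of S100b, Erbb3 and Gfap are apart between the libraries, and those of Foxd3, Fabp7, Cdh19 and Mbp overlap, where 24% of nuclear protein-coding genes had intervals apart.

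Other genes of peripheral glia gave the setting for these values. Of 17 genes of myelin and myelinating Schwann cells, 4 reached 1 TPM in both libraries, where 54.2% of nuclear protein-coding genes did so. Pmp22, a myelin protein that many other cells also make, was at 29.8 TPM in replicate 1, against 30.5 TPM in replicate 2, and Cnp at 10.2 and 9.59 TPM. Gjb1, a connexin of myelin and of liver, was over 2-fold apart, at 0.730 TPM in replicate 1, against 19.7 TPM in replicate 2. The hepatocyte genes were higher in the same library, and their part in the Gjb1 level was not tested. The 5 genes averaging 1 TPM or more had a median log2 difference of 0.01, and over the whole list 11 genes were higher in replicate 1 and 6 in replicate 2. That is near the share of 60.8% among nuclear protein-coding genes with a value above 0. After median-of-ratios scaling 10 of the 17 were higher in replicate 1, against a share of 50.2%. Several of the 17 had fewer than 10 counts in a library.

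Of the genes of immature and non-myelinating Schwann cells, 14 of 16 were higher in replicate 1. Among 17521 nuclear protein-coding genes with a value above 0 the share was 60.8%. After median-of-ratios scaling, which brought that share to 50.2%, 11 of the 16 were higher in replicate 1. The median log2 difference was 0.17 over all 16, and the 12 averaging 1 TPM or more had one of 0.27. Of these, 11 reached 1 TPM in both libraries. Ncam1, an adhesion molecule that chromaffin cells also carry, was close in the libraries at 11.6 and 11.1 TPM in replicates 1 and 2. Gap43, a protein of growing axons and immature Schwann cells, was at 5.48 TPM in replicate 1, against 1.36 TPM in replicate 2, 4.03-fold apart. Ngfr, the low-affinity neurotrophin receptor, was at 3.81 TPM in replicate 1, against 1.5 TPM in replicate 2, 2.54-fold apart. L1cam, an adhesion molecule of axons and glia, was at 4.26 TPM in replicate 1, against 2.51 TPM in replicate 2, and the membrane protein Gpm6b at 3.73 and 2.80 TPM.

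The intermediate filament list, of 8 genes besides Gfap, held 3 that were over 2-fold higher in replicate 1, all known from neurons. Among 12535 nuclear protein-coding genes averaging 1 TPM or more, 316 were over 2-fold higher in that library. Prph, peripherin, was at 6.71 TPM in replicate 1, against 1.75 TPM in replicate 2. The neurofilament genes Nefl and Nefm were at 2.04 and 1.58 TPM in replicate 1, against 0.630 and 0.750 TPM in replicate 2. Ina, also known from neurons, was not over 2-fold apart, at 2.55 TPM in replicate 1, against 2.03 TPM in replicate 2. Vim, vimentin, was at 116.55 TPM in replicate 1, against 75.8 TPM in replicate 2, Des, desmin, at 7.15 and 5.33 TPM, and Nes, nestin, at 3.87 and 6.20 TPM. The median log2 difference of the list was 0.46. The part of neuronal RNA in the levels of Mbp, Fabp7, Cdh19 and Sox10, which were higher in replicate 1 as well, was not tested.

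The neuregulin list held receptors related to Erbb3, their ligands and their regulators. Erbb2, the receptor that pairs with it, was at 1.80 TPM in replicate 1, against 1.60 TPM in replicate 2, and Erbb4 was at 0.160 TPM in both. Nrg1, the axonal ligand, was at 0.660 TPM in replicate 1, against 1.01 TPM in replicate 2. Nrg4, a ligand that brown fat secretes, was the most abundant ligand, at 15.2 TPM in replicate 1, against 17.7 TPM in replicate 2. Errfi1, an inhibitor of these receptors, was over 2-fold apart, at 15.1 TPM in replicate 1, against 30.9 TPM in replicate 2. Rnf41, the ubiquitin ligase that degrades ERBB3, was at 10.7 and 10.4 TPM, and Lrig1, another negative regulator, at 5.09 and 4.99 TPM in replicates 1 and 2. Of the 12 genes 8 reached 1 TPM in both libraries, and those 8 had a median log2 difference of -0.09.

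Of the neural crest genes other than Sox10 and Foxd3, 10 of 12 were higher in replicate 1, and the count was the same after median-of-ratios scaling. Among nuclear protein-coding genes with a value above 0 the shares were 60.8% and, after that scaling, 50.2%. Several of the 10 were near ties or had few counts, such as Pax3 with 2 and 0 and Tfap2a with 9 and 8 in replicates 1 and 2. The median log2 difference over the whole list was 0.04. In both libraries 5 reached 1 TPM, with a median log2 difference of 0.21. The related SOXE genes Sox8 and Sox9 were low, at 0.430 and 0.230 TPM in replicate 1, against 0.390 and 0.350 TPM in replicate 2. Ednrb, the endothelin receptor B, was at 14.1 TPM in replicate 1, against 12.0 TPM in replicate 2. Ets1, a factor that endothelium and lymphocytes also use, was at 24.8 and 16.2 TPM, Tfap2b at 3.15 and 3.21 TPM and Snai1 at 2.82 and 1.94 TPM in replicates 1 and 2.

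Relatives of the 8 genes differed widely in level. Of 14 other S100 genes 9 reached 1 TPM in both libraries, led by S100a1 at 89.8 TPM in replicate 1, against 79.5 TPM in replicate 2. S100a11 was at 58.4 and 58.6 TPM, S100a10 at 51.7 and 44.9 TPM and S100a13 at 20.0 and 22.9 TPM in replicates 1 and 2. The neutrophil genes S100a8 and S100a9 were over 2-fold apart, at 3.13 and 3.24 TPM in replicate 1, against 6.82 and 8.22 TPM in replicate 2. S100a5 and S100z had no counts. The median log2 difference over the 9 S100 genes averaging 1 TPM or more was 0.11.

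Fabp4, the adipocyte relative of Fabp7, was at 1427 TPM in replicate 1, against 1327 TPM in replicate 2. Fabp3 was at 49.4 and 93.0 TPM and Fabp5 at 16.7 and 18.2 TPM in replicates 1 and 2. Fabp1 and Fabp2, of liver and intestine, were over 2-fold apart, at 3.42 and 0.180 TPM in replicate 1, against 82.6 and 1.98 TPM in replicate 2. Fabp6 and Fabp12 had no RSEM counts, 4 of the 8 relatives reached 1 TPM in both libraries, and the median log2 difference was -0.90 over the 5 averaging 1 TPM or more. Of the 12 other type II cadherins 3 reached 1 TPM in both libraries, with a median difference of 0.08. They were Cdh5 of endothelium at 40.5 and 36.9 TPM, Cdh6 at 6.16 and 6.52 TPM and Cdh11 at 4.73 and 4.41 TPM in replicates 1 and 2. Cdh24 came next, at 0.590 and 0.460 TPM, below Cdh19.

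**Figure D4:**
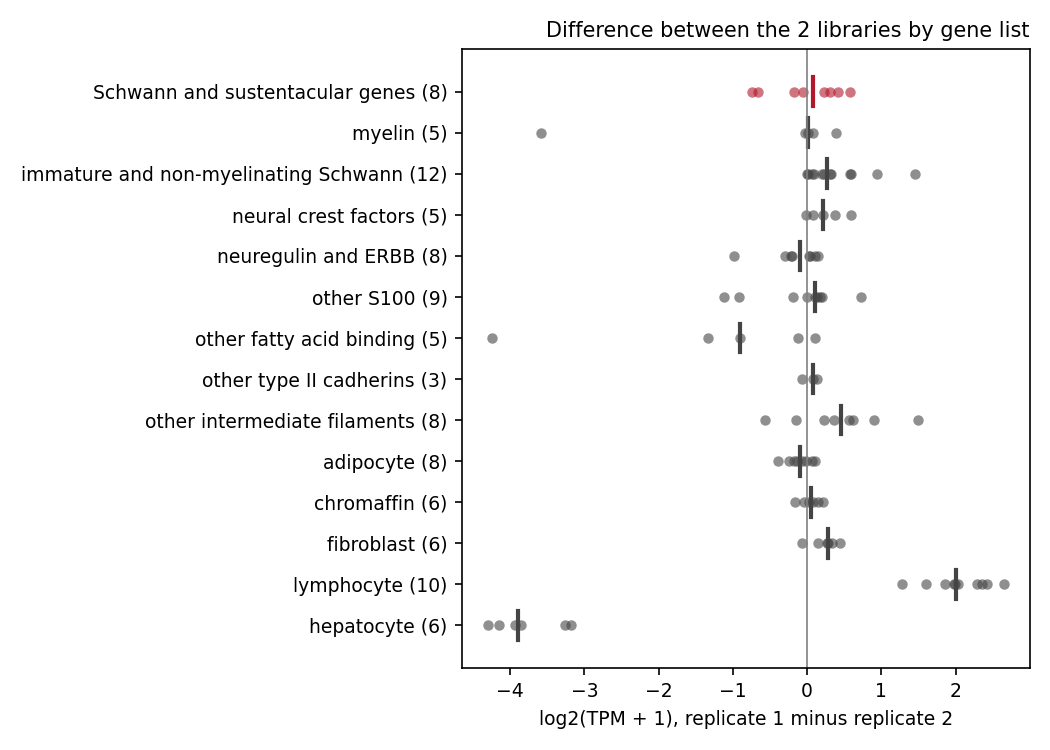
Difference in log2(TPM + 1), replicate 1 minus replicate 2, for the 8 Schwann and sustentacular genes (top row) and for genes of each list averaging 1 TPM or more, with the number of genes in brackets. Vertical bars are medians, and the melanocyte and astrocyte and oligodendrocyte lists are not drawn. The lymphocyte genes lie to the right, the hepatocyte genes to the left, and the 8 glial genes on both sides of 0.

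Markers of other cells that use some of the 8 genes were set beside them. Of 6 melanocyte genes, a lineage that shares Sox10 and Erbb3, only Mitf reached 1 TPM in both libraries, at 2.19 TPM in replicate 1, against 1.42 TPM in replicate 2, and Mitf is also made by other cells. Pmel was at 0.400 and 0.610 TPM in replicates 1 and 2, Tyr and Tyrp1 had no RSEM counts in either library, and Dct and Mlana had none in replicate 1 and 1 each in replicate 2. By kallisto Dct was at 0.390 and 0.236 TPM in replicates 1 and 2. The melanocyte list summed to 2.59 TPM in replicate 1, against 2.09 TPM in replicate 2.

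Of 8 astrocyte and oligodendrocyte genes only Aldoc, which many tissues express, reached 1 TPM in both libraries, at 2.45 TPM in replicate 1, against 2.37 TPM in replicate 2. Slc1a2 was at 0.5 and 0.650 TPM, Olig1 at 0.310 and 0.290 TPM and Aqp4 at 0.0900 and 0.0600 TPM in replicates 1 and 2. Mog, of oligodendrocyte myelin, had 1 count in each library and Opalin none by RSEM. The list summed to 3.45 TPM in replicate 1, against 3.41 TPM in replicate 2.

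All 8 adipocyte genes were detected and none was over 2-fold apart, with a median log2 difference of -0.10. Ucp1, the uncoupling protein of brown fat, was at 723.6 TPM in replicate 1, against 861.0 TPM in replicate 2, Cidea at 395.8 and 377.8 TPM and Plin1 at 172.1 and 194.1 TPM. The 6 fibroblast genes were all detected, with 5 higher in replicate 1 and a median of 0.28, led by Col3a1 at 196.85 and 162.7 TPM, Col1a1 at 131.6 and 96.7 TPM, Col1a2 at 97.6 and 77.5 TPM and Dcn at 63.8 and 57.8 TPM in replicates 1 and 2. The chromaffin list had a median of 0.05, with Chgb at 455.2 TPM in replicate 1, against 508.3 TPM in replicate 2, Chga at 407.6 and 421.2 TPM, Pnmt at 204.8 and 185.4 TPM and Th at 133.1 and 130.9 TPM. The lymphocyte and hepatocyte lists had medians of 2.01 and -3.89, the widest of the 15 lists. Coro1a, Cd52 and Ptprc stood at 20.79, 20.98 and 14.71 TPM in replicate 1, against 3.24, 2.50 and 1.92 TPM in replicate 2. Alb, Apoa1 and Ttr stood at 172.5, 43.4 and 13.9 TPM in replicate 1, against 3072, 676.0 and 292.4 TPM in replicate 2.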

How the data were processed

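Total RNA was sequenced in 2 adrenal gland libraries of 1 group. Expected counts and TPM per gene and transcript, their posterior means and the credibility bounds (a signal that adds to no fixed total) were deposited by the authors, with column names that RSEM writes, against mm10 with GENCODE M21, per the deposited file list. Estimated counts and TPM of a second quantification were deposited by the authors with the column names of kallisto, and were summed here to genes. The aligner and all versions: not given in the sources used here. A directional library kit is cited in the labels, and whether counting used strand is not stated. The mice are an F1 cross, and any effect of CAST alleles on quantification against mm10 was not tested.

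The members and the 15 lists (148 genes) were chosen with earlier results of these data known. A gene counted as detected at 1 TPM or more in each library. Counts of genes over 2-fold used a mean of at least 1 TPM, ratios of single members had no minimum, and log2 differences a pseudocount of 1. Text names all 8 members, the 4 most abundant genes of each list, its genes over 2-fold apart, its genes with no counts, and transcripts with at least 10% of a member's TPM. Genes outside this rule, namely Erbb2, Erbb4, Nrg1, Sox8, Sox9, Pax3, Tfap2a, Ina, Mog and Dip2a, were named after their values were seen. Not every lymphocyte and hepatocyte gene over 2-fold apart is named. Single values of some genes of the myelin list are not reported here. The alternative settings were kallisto, posterior means, other scalings, minimums and pseudocounts, and single libraries. Chi-square per degree of freedom was 48.5 for the counts of 19557 genes, so the libraries differed by more than counting noise and were kept as 2 samples. The fold and scaling steps were tested on simulated data. Python 3.11.15, pandas 2.3.3, numpy 2.4.6 and matplotlib 3.10.9 were used. Proteins of the members were not used here.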

Additional observations from a re-analysis of the deposited data

How the results depend on the processing

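All 8 genes kept the same direction between the libraries under each of the 5 alternatives tried (kallisto, posterior mean TPM, 2 other scalings and a pseudocount of 0.1), and Gfap passed 2-fold by kallisto, at 2.07-fold. The count of 5 detected genes became 2 with a minimum of 2 TPM and 6 with one of 0.5 TPM, and stayed at 5 with single libraries. It became 7 when TPM was rescaled to nuclear protein-coding genes, which held 27.4% and 27.8% of TPM in replicates 1 and 2. On that scale Sox10 averaged 2.74 TPM and Foxd3 1.59 TPM, and both were detected. The count of 1 gene over 2-fold became 0 with a minimum mean of 5 TPM, because Erbb3 then fails the minimum. The summed level of 28.2 TPM became 39.7 by kallisto and 101.9 under that rescaling, and 24.4 to 31.9 with single libraries. The shift to kallisto is general: its median ratio to RSEM was 1.52 over 12529 nuclear protein-coding genes, and 1.35 to 1.73 over the members. The shift from median-of-ratios scaling was -0.08 on the log2 scale, and counts of list genes higher in replicate 1 under it were added after seeing the data. No paired analysis was possible because there is 1 group. Depth limits Gfap, Foxd3, Sox10 and Fabp7 most, at 13 to 78 counts per library, and the transcript shares of these genes with them.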
